A study of Danio rerio with 4 samples.

Results

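The transcripts described here were detected in both libraries of wild-type zebrafish larvae and had an estimated count that rounded to 0 in both libraries of znf574 mutant larvae. They were selected on the measured counts themselves: a rounded estimated count of 0 in both mutant libraries, at least 10 in both wild-type libraries and a mean of at least 100 over the wild-type libraries, outside the 150 transcripts with the highest mean wild-type TPM (transcripts per 1000000, a level corrected for transcript length). This gave 208 of the 57775 transcripts listed. Their difference between mutant and wild type is therefore a description of the choice, and no test of it is given.

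The study sequenced poly(A) RNA of whole larvae from crosses between znf574+/- carriers, all bred in the AB wild-type background. The mutant group was znf574-/- and had 2 libraries, with 42901442 and 31653921 estimated counts in replicates 1 and 2. The wild-type group had 2 libraries, with 35764394 and 36320540, from siblings of wild-type appearance that were znf574+/+ or znf574+/-, so this group may itself carry the mutant allele. Animals were told apart by appearance 7 days after fertilization, neither group received a treatment, and neither the number of larvae per library nor the origin of the replicates in separate clutches is given. Because whole animals were sorted by appearance, fewer cells of a type and less RNA per cell cannot be told apart.

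znf574 encodes a zinc finger protein, which the title of the series places in the quality control of defective intermediates of ribosome assembly. A gene usually gives rise to several transcripts that differ by splicing, start or end site and share much of their sequence. A program such as kallisto, with which these counts were made, divides a read that fits several listed transcripts among them by a model, so that an estimate for 1 transcript depends on which related transcripts are listed and how each is covered. An estimate of 0 is thus a statement about 1 listed sequence and not about the gene. The transcripts carry Ensembl identifiers only, and 0 of them matched the tables that pair identifiers with gene names, so genes, functions, positions, sequences and tissue markers of these transcripts, and the level of znf574 itself, were not analysed here.

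The 208 transcripts were a set of low to moderate level with a few abundant members. Their mean wild-type count ranged from 100 to 4519 with a median of 198, and 104 of them lay under 200. Only 27 reached 500 counts and 8 reached 1000. In TPM the mean wild-type level ranged from 0.464 to 260 with a median of 4.75 and quartiles of 2.57 and 9.18, and 49 members were at 10 TPM or more and 11 under 1 TPM. The other 21703 transcripts that met the wild-type part of the rule had a median of 397 counts and 6.06 TPM. Together the 208 held 0.195% of the counts of wild-type replicate 1 and 0.180% of those of replicate 2, and the sum of their TPM values was 2111 and 1909.

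**Figure D1:**
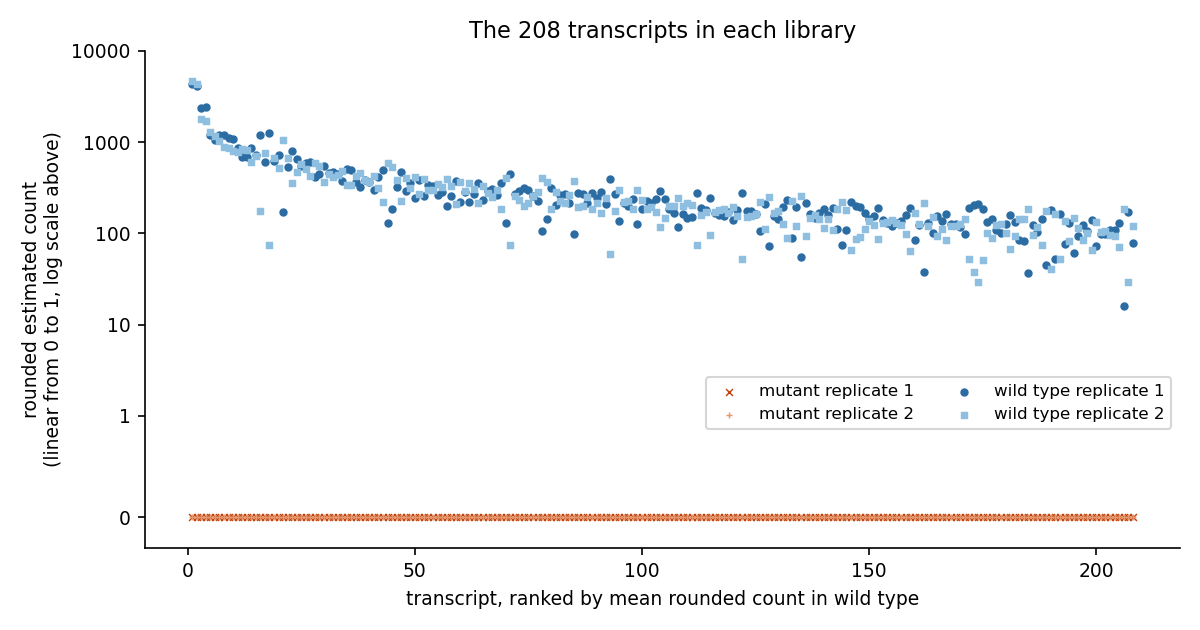
Rounded estimated counts of the 208 transcripts (vertical axis, linear from 0 to 1 and logarithmic above) in the mutant and wild-type libraries, ranked along the horizontal axis by mean wild-type count. All mutant points lie at 0, and the wild-type points run from 16 to 4679 counts, with a few pairs that lie far apart.

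The most abundant member by TPM was ENSDART00000171828.2, a transcript of 582 bases. It had 0 and 0 counts in the mutant libraries, against 4148 and 4359 in the wild-type libraries. Its wild-type level of 260 ± 8.81 TPM (SD, n = 2) ranked it 457th among all listed transcripts, and the wild-type libraries differed by 1.03-fold. Relative to library totals, its wild-type level was 1433 times a floor of 3 counts per mutant library. This ratio is a scale for the wild-type level and no lower limit of the difference, because the transcript was chosen for its zeros. The floor allows for counting error only, and counts varied between the mutant libraries beyond that. Reads assigned to a related transcript would not appear in the ratio either.

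The member with the highest mean count had 1221 bases, with 0 and 0 counts in mutants, against 4359 and 4679 in wild type, or 125 ± 2.36 TPM (SD, n = 2). These 2 transcripts stood apart from the rest, and held 12.2% and 13.8% of the counts of the set in the wild-type libraries. The next by count, of 1311 bases, was at 0 and 0 counts in mutants, against 2337 and 1792 in wild type. It was followed by a transcript of 2139 bases, at 0 and 0 in mutants, against 2437 and 1688 in wild type. In both, replicate 1 was the higher wild-type library, relative to library totals by 1.32-fold and 1.47-fold. Relative to library totals, replicate 1 was also higher in 15018 of the other 21703 transcripts that met the wild-type part of the rule. There the median difference in either direction was 1.17-fold.

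The longest of the 8 members with a mean of at least 1000 counts was ENSDART00000178686.2, of 4974 bases. It had a rounded 0 in both mutant libraries, against 1190 and 886 counts in the wild-type libraries. Its wild-type level was 6.90 ± 1.89 TPM (SD, n = 2), and relative to library totals it was 350 times the same floor. Over all 208 transcripts this ratio ran from 33.6 to 1522 with a median of 66.8, a range set by the wild-type level alone. By TPM, 2 very short members came next after the transcripts of 582 and 1221 bases. One of 255 bases stood at 87.9 ± 15.3 TPM and one of 183 bases, the shortest of all, at 74.6 ± 8.94 TPM in wild type (SD, n = 2 each).

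In the mutant libraries the values were at or very near an exact 0. The unrounded estimate was exactly 0 in both mutant libraries for 161 members. In the other 47 it was above 0 in at least 1 mutant library, but it reached 0.01 counts in only 13 of them and 0.344 at most. The summed mutant level of the set was 0.0181 TPM in replicate 1 and 0.0254 TPM in replicate 2.

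The zeros were set apart from the low counts next to them. Of the 21911 transcripts that met the wild-type part of the rule, 208 or 0.949% were at 0 in both mutant libraries, whereas 22 had 1 to 3 counts in the higher mutant library and 51 had 4 to 9. Another 224 had 10 to 29 counts there, 1407 had 30 to 99, and 19999, or 91.3%, had 100 or more. Numbers thus fell toward low counts and were higher again at 0. For scale, 39.4% of the 21911 were lower in both mutant libraries than in both wild-type libraries in counts per 1000000 of the library total (CPM), which all 208 are by the rule. The 22 transcripts just outside the rule, at 1 to 3 counts, had a median length of 1239 bases and a median wild-type count of 218, near those of the members.

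**Figure D2:**
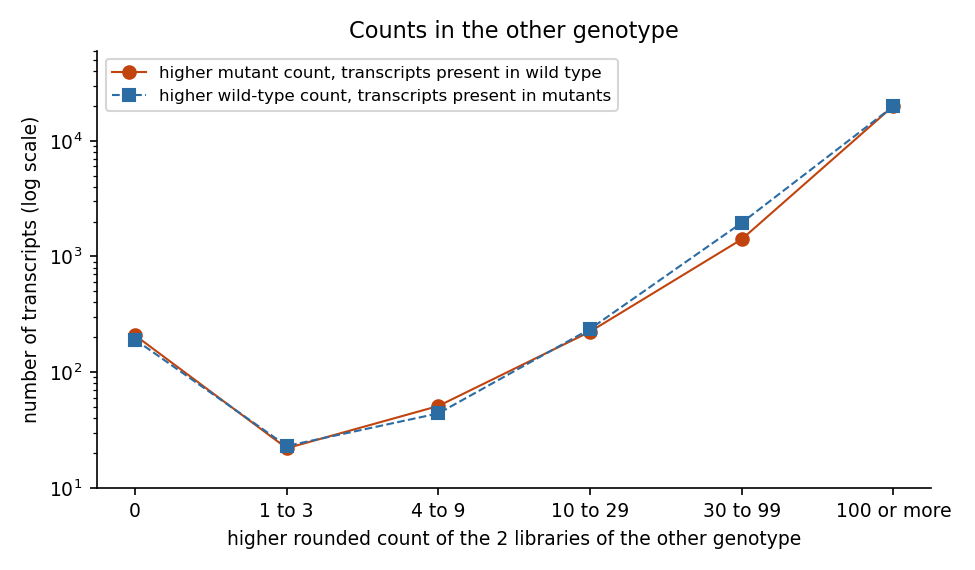
Number of transcripts (logarithmic vertical axis) by the higher rounded count in the libraries of the other genotype. Circles are the 21911 transcripts present in wild type, by mutant count, and squares the 22315 present in mutants, by wild-type count; in both, the class at 0 holds more transcripts (208 and 191) than the class at 1 to 3 counts (22 and 23).

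At the other edges of the rule, 21 members had a mean wild-type count from 100 to under 110, and 19 transcripts that met every other condition lay from 90 to under 100. The exclusion of the 150 most abundant transcripts removed 0, since the 150th stood at 1397 TPM and the highest member at 260 TPM. A further 19 transcripts were at 0 in mutants with a wild-type mean of at least 100, but had fewer than 10 counts in 1 wild-type library. Replicate 1 was the low library in 12 of these and replicate 2 in 7, and 15 of them were at 0 in the low library. The highest wild-type count among the 19 was 681.

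The zeros of the mutant libraries overlapped in part, and far more than the share of zeros over all transcripts. Of the 21911 transcripts present in wild type, 615 or 2.81% were at 0 in mutant replicate 1. Of these 615, 33.8% were also at 0 in mutant replicate 2. In mutant replicate 2, 348 or 1.59% of the 21911 were at 0, of which 59.8% were also at 0 in replicate 1. The 407 transcripts at 0 in mutant replicate 1 alone had a median of 81 counts in mutant replicate 2, and 172 of them had 100 or more, with 10804 the highest. The 140 at 0 in mutant replicate 2 alone had a median of 87.5 counts in mutant replicate 1. Mutant replicate 1 thus had more zeros although it was the deeper library. The number of members rested on having both mutant libraries: the rule without mutant replicate 2 would give 615 transcripts, and without mutant replicate 1 it would give 348.

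The mirror rule, with the genotypes exchanged in the count conditions, gave a set of nearly the same size. It found 191 transcripts at 0 in both wild-type libraries among 22315 present in mutants, or 0.856%. The 150 transcripts left out were still those highest in wild-type TPM. The 22315 therefore keep transcripts abundant in mutants, up to 8732 TPM, and are not an exact counterpart of the 21911. These held 0.208% and 0.164% of the counts of mutant replicates 1 and 2, close to the shares of the 208 in wild type. Their median level was 3.99 TPM in mutants. Of the 22315, 324 or 1.45% were at 0 in wild-type replicate 1 and 331 or 1.48% in wild-type replicate 2. Of these, 59.0% and 57.7% were at 0 in the other wild-type library too.

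**Figure D3:**
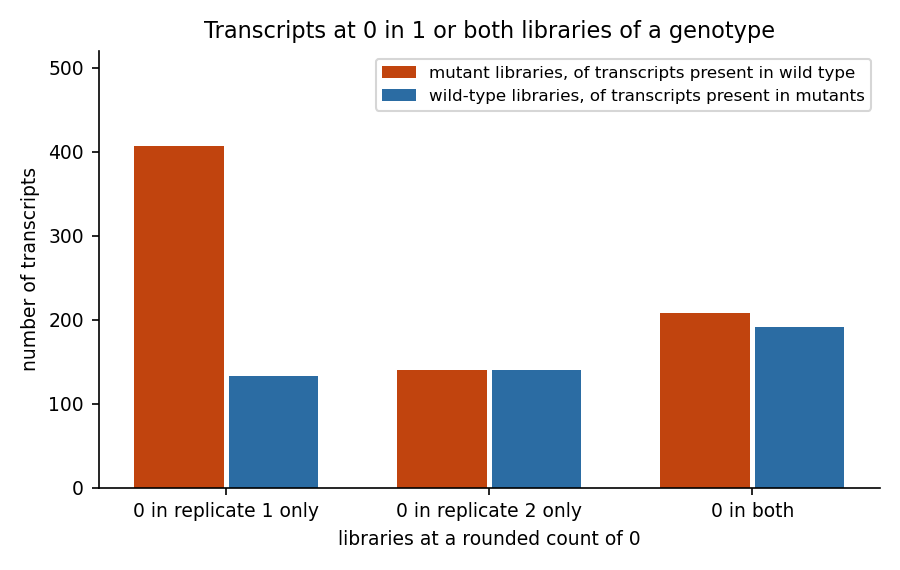
Number of transcripts at a rounded count of 0 in replicate 1 only, in replicate 2 only or in both libraries of a genotype, for mutant libraries among the 21911 transcripts present in wild type and for wild-type libraries among the 22315 present in mutants. The bars at 0 in both stand at 208 and 191, and the highest bar, 407, is that of mutant replicate 1 alone.

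None of the 208 had whole estimated counts in both wild-type libraries. An estimate counted as whole when it lay within 0.005 of a whole number and under 10000; such a value is what results when all reads of a transcript fit that transcript alone. With 0 of 208 members whole, the exact 95% binomial interval reaches 1.76%. Among the other 21703 transcripts, 4141 or 19.1% were whole in both wild-type libraries. The difference was present at each level: 0 of 104 members and 17.7% of the others at a mean under 200 counts, 0 of 77 and 19.9% from 200 to under 500, and 0 of 27 and 19.2% at 500 or more. It could not be seen among transcripts with the highest identifier numbers, a class described below. There, 0 of 73 members were whole, with an interval up to 4.93%, against 3.71% of the others. Among the lowest numbers it was 0 of 22, with an interval up to 15.4%, against 26.7%. In 8 members, or 3.85%, the estimate was whole in 1 wild-type library and divided in the other. Among all transcripts that met the wild-type part of the rule, 5.87% were of this kind. A divided estimate can also lie within 0.005 of a whole number by chance, so these 8 need not have reads that fit 1 transcript alone. In the mirror set, 1 of 191 transcripts was whole in both mutant libraries. These and the following comparisons with the other transcripts are descriptions without a test. All intervals cover counting error only and treat transcripts as independent, which transcripts of 1 gene are not. For example, the members ranked 200 and 201 by TPM, both of 4383 bases, had the same estimates in every library, 126 and 119 counts in wild type.

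The wild-type libraries agreed less well on these transcripts than on others. The median absolute log2 ratio of replicate 2 to replicate 1 in CPM was 0.47 for the 208, or 1.39-fold, against 0.22, or 1.17-fold, for the other 21703. The libraries differed by more than 1.5-fold in 85 members, or 40.9%, where 14.1% of all 21911 did so. They differed by more than 2-fold in 48 members, or 23.1%, where 4.50% of all 21911 did so. A difference of more than 4-fold was seen in 15 members, or 7.21%, against 0.903% of the others. With 1 library on each side of this ratio, no test is given. Across transcripts, which share the same pair of libraries, the Pearson correlation of log2 CPM was 0.62 for the 208 and 0.95 for the others, whose levels span a wider range.

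The gap was present in each class of level, but the classes did not fully match members and others in level. Under 200 counts the median count was 130 in members and 142.5 in others. It was 283 and 314 from 200 to under 500 counts, and 727 and 1077 at 500 or more. At a mean under 200 counts the median absolute log2 ratio was 0.60 in 104 members and 0.32 in the others, from 200 to under 500 counts it was 0.46 in 77 members and 0.24, and at 500 or more it was 0.31 in 27 members and 0.17. Of the other 21703 transcripts, 16283 had divided estimates in both wild-type libraries, and these stood at 0.34, 0.25 and 0.18 in the same classes. They make up most of the others, so their medians must lie near those of the others. The gap varied with the number in the Ensembl identifier, by which all listed transcripts were cut into 5 classes of equal size. In the highest-numbered class it was small, with 0.34 in 73 members and 0.26 in the others, and 12.3% and 8.23% over 2-fold. In the lowest-numbered class it was 0.59 in 22 members and 0.19 in the others. In the mirror set the mutant libraries were apart by a median absolute log2 ratio of 0.71, against 0.23 for the other transcripts present in mutants. Neither wild-type library was always the higher: replicate 1 was higher in 117 members and replicate 2 in 91. Among the other 21703, replicate 1 was higher in 15018 and replicate 2 in 6685. The median log2 ratio of replicate 2 to replicate 1 was similar, -0.11 in the members and -0.14 in the others. Its SD across transcripts was wider in the members, 1.01 against 0.49. The numbers of higher libraries therefore do not show that the members leaned less to replicate 1. The rule itself limits the spread between the wild-type libraries, since it asks for at least 10 counts in each. The lowest value of a member in a wild-type library was 16 counts.

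**Figure D4:**
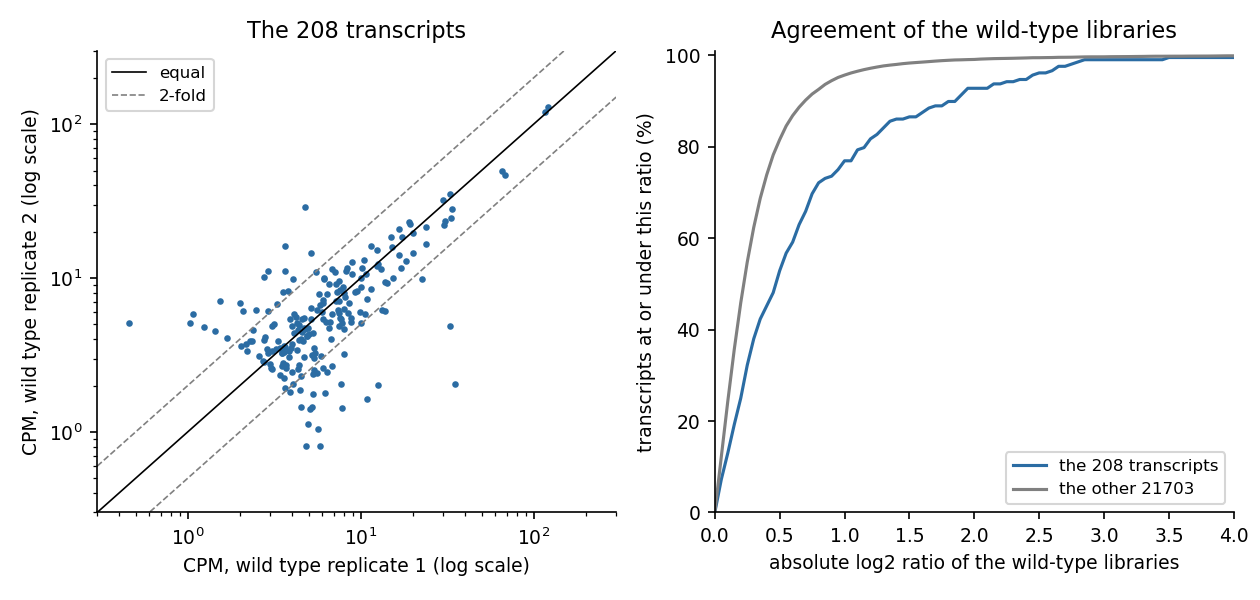
Left, CPM of the 208 transcripts in wild-type replicate 1 (horizontal) and replicate 2 (vertical), both on logarithmic axes, with lines at equal levels and at 2-fold. Right, the percentage of transcripts whose wild-type libraries lie within a given absolute log2 ratio; the curve of the 208 runs below that of the other 21703, with 76.9% and 95.7% within 2-fold.

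Of the 15 members more than 4-fold apart, 9 had a mean under 200 counts, 3 from 200 to under 500 and 3 at 500 or more. The 3 at 500 or more are given here. A transcript of 974 bases had 0 and 0 counts in mutants, against 1249 and 74.4 in wild-type replicates 1 and 2, a 17.0-fold difference within wild type. One of 13710 bases had 0 and 0 in mutants, against 1182 and 177 in wild type. In the opposite direction, one of 1413 bases had 0 and 0 in mutants, against 170 and 1051 in wild type. The 4 highest members by count differed between the wild-type libraries by 1.03 to 1.47-fold, on both sides of the median of 1.39-fold over the 208.

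The members were shorter than the transcripts they were drawn from. Length, which the rule did not use, had a median of 1434 bases and quartiles of 904 and 2410 in the 208, against a median of 2256 and quartiles of 1392 and 3749 in the others. The share of transcripts present in wild type that were at 0 in both mutants was 2.31% at up to 500 bases (9 of 390), 1.82% above 500 and up to 1000 bases (53 of 2906) and 1.16% above 1000 and up to 2000 bases (73 of 6281). It was 0.698% above 2000 and up to 4000 bases (52 of 7451) and 0.430% above 4000 bases (21 of 4883). The shorter median held at each level: 1373 bases in members and 1860 in others under 200 counts, 1573 and 2215 from 200 to under 500, and 1431 and 2556 at 500 or more. It did not hold in each class of identifier number. The median was 1436 bases in 73 members and 2332 in others in the highest-numbered class, but 2176 bases in 22 members and 2177 in others in the lowest-numbered class. Members ranged from 183 to 13800 bases. The 191 transcripts of the mirror set had a median of 1908 bases, against 2314 for the others present in mutants.

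Members also differed from the rest in their identifiers. Ensembl numbers identifiers in the order in which transcript models are created and raises the version after the point when a model is revised, so a high number and a version of 1 mark models added late and not revised since. Of the 5 classes by number, the highest held 73 members or 35.1%, against 11.9% of the others, and the lowest held 22 or 10.6%, against 33.9%. Version 1 was carried by 86 members or 41.3%, against 2917 or 13.4% of the others. Number and version largely overlap, since 73 of these 86 members and 2588 of these 2917 others lie in the highest-numbered class, where all carried version 1. The share at 0 in both mutants was 2.74% in the highest-numbered class and 0.299% in the lowest.

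Within classes of length the size of this difference varied. Among transcripts above 1000 and up to 2000 bases, 5.21% of the highest-numbered class were at 0 in both mutants and 0.662% of the other classes. Above 2000 and up to 4000 bases it was 2.0% and 0.573%, and above 4000 bases 1.12% and 0.294%. Above 500 and up to 1000 bases the values were nearer, 2.68% and 1.70%, with overlapping 95% intervals of 1.29 to 4.88% and 1.23 to 2.28%. Up to 500 bases they were 3.40% (5 of 147) and 1.65% (4 of 243), also with overlapping intervals of 1.11 to 7.76% and 0.450 to 4.16%. Within the highest-numbered class the share thus did not fall steadily with length. High-numbered transcripts were also less often whole, 3.71% of the others in that class against 26.7% in the lowest-numbered class, so the number moves with the division of reads; its part in the zeros was not tested. In the mirror set, 46.1% lay in the highest-numbered class.

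**Figure D5:**
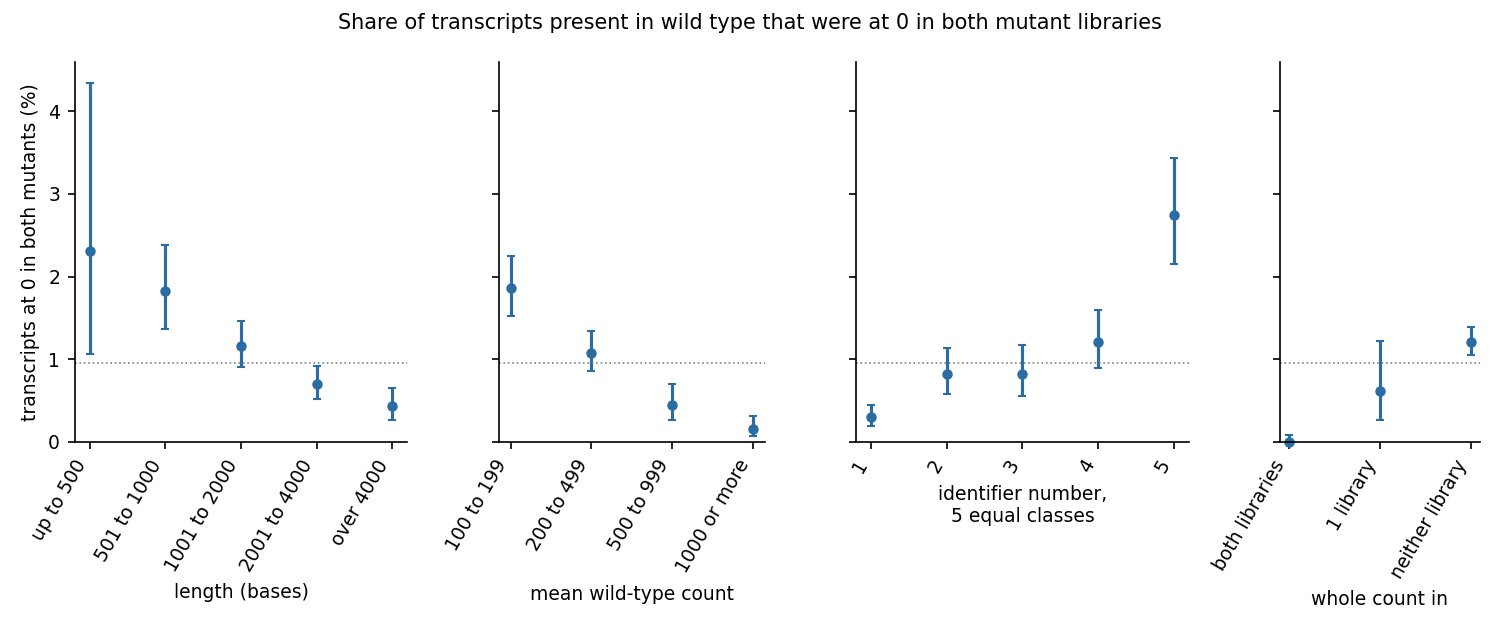
Percentage of transcripts present in wild type that were at 0 in both mutant libraries, by length, mean wild-type count, identifier number (5 classes of equal size, 1 the lowest numbers and 5 the highest) and whether the wild-type estimates were whole. Bars are exact 95% binomial intervals and the dotted line is the value over all 21911, 0.949%; the share falls with length and count, is highest in identifier class 5 and is 0 where both estimates were whole.

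Lengths were also set against those of the mirror set. Of the 208, 12 or 5.77% had exactly the length of at least 1 transcript of the mirror set (exact 95% binomial interval 3.02 to 9.86%), against 4.18% of the others, a share near the background. Within 10 bases it was 59.1% of the members and 47.5% of the others, a window so wide that it held much of either set.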

How the data were processed

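The submitters' processing notes name bcl2fastq 2.20, kallisto 0.46.0, by which reads were assigned to transcripts, and DESeq2 2.11.40, with the builds GRCz11 and danRer11. Which annotation release and which kallisto options were used is not given in the sources used here. Per the labels, RNA was extracted with phenol and chloroform for a stranded mRNA kit. The authors deposited estimated counts, which are not normalized and need not be whole, and TPM values, which are estimated counts per effective length scaled per library. Effective lengths were the same in all tables and equalled the length minus 50 bases for each of the 208 members.

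Estimated counts were rounded for the rule (Python 3.11.15, pandas 2.3.3). CPM is the unrounded count per 1000000 of the library total, and 3 counts equal 0.0699 to 0.0948 CPM. Medians, shares and exact 95% binomial intervals (scipy 1.17.1) were set beside the other transcripts that met the wild-type part of the rule. No test between genotypes was run, because the rule uses that contrast. The coding of the rule was checked on simulated tables with planted rows, which does not bear on the division of reads or on the zeros. No table at hand links these identifiers to genes, and the planned tissue marker check was not analysed here. Identifiers are printed for the member highest in TPM and the longest with a mean of at least 1000 counts. Members and lists were chosen with earlier results of these data known. Libraries of a genotype were no repeat deposits: the chi-square of their counts was 83.2 per transcript in mutants and 36.7 in wild type.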

Additional observations from a re-analysis of the deposited data

How the results depend on the processing

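Of 83 values recomputed under other settings, 67 stayed within 1.5 times (counts), the 95% interval or the replicate SD of the reported value. The 67 include the values with the 150 most abundant transcripts kept in. Those values could not move, because that exclusion removed 0 members. A mean of at least 50 counts gave 348 members, a median of 3.05 TPM, a median absolute log2 ratio of 0.56, 342 mirror transcripts and 11.8% of members sharing a length with one of them. A mean of at least 200 counts gave 104 members, 7.71 TPM and 95 mirror transcripts. Without 1 library at a time, the members numbered 221 to 615, the mirror set 155 to 331 and the share of whole counts 0 to 1.95%, the highest with only 1 wild-type library to be whole in; agreement cannot be computed without a wild-type library. Lengths within 10 bases gave 59.1%, because more lengths match. The median length ran from 1311 to 1597 bases and the median absolute log2 ratio from 0.42 to 0.56 over all settings, including TPM ratios and TMM library sizes (edgeR 4.0.16); a minimum of 1 count per wild-type library, chosen after seeing the data, gave 212 members. No paired analysis was possible because the clutch origin of the replicates is not given, and no result comes from a test. Depth leaves levels under 3 counts unresolved, and the authors' tables carry no estimate of how reads were divided.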
